A study of Homo sapiens with 4 samples.

Results

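The end of the long arm of chromosome 12, band 12q24.33, holds a run of 7 zinc finger genes: ZNF605, ZNF26, ZNF84, ZNF140, ZNF891, ZNF10 and ZNF268. They are 7 of 20162 protein-coding genes in the annotation and 7 of 565 zinc finger genes of at least 2 kb, where a zinc finger gene is one whose symbol is ZNF, ZFP, ZSCAN or ZKSCAN followed by a digit. The genes and the interval around them, chr12:133350000-133851895 (hg19), were selected on their coverage by the same lists of H4K20me3 regions that are described here. Every coverage value for them is therefore a description and carries no test.

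Histone H4 trimethylated at lysine 20 (H4K20me3) was profiled by ChIP-seq in IMR90 cells, a line of diploid human lung fibroblasts that stops dividing after long culture. Proliferating cells (PRO) were taken at population doubling 32 and replicative senescent cells (RS) at population doubling 86. Cells of both groups were grown at low oxygen and fixed with formaldehyde, and the labels name no other treatment and no genetic change. A group had 2 samples, made with antibodies from Millipore and from Cell Signaling. A region entered the PRO or RS list if both antibodies found it, so each group has 1 merged list, and no value here has a spread between replicates. A further list, DiffBind, holds regions that the authors called different between the groups, without a direction. The lists hold positions only, so the read depth behind a region is unknown. The study lists unequal numbers of aligned and duplicate reads among these libraries, and coverage here is not adjusted for them. The study reports that peaks of the antibodies overlapped far more in RS than in PRO cells. Sequence outside the PRO list may therefore still carry the mark.

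KRAB zinc finger genes form one of the largest families of transcription factor genes in the human genome, and many sit in clusters that arose by duplication. A typical member has a start exon, short exons for the KRAB repression domain and a long last exon that codes for a tandem array of C2H2 fingers, joined by short linkers of nearly constant sequence. The arrays make neighbouring genes alike in sequence. H4K20me3 is a mark of silent chromatin that is laid down by the SUV420H enzymes, mostly where H3K9me3 is already present, and the bodies of zinc finger genes are known carriers of H3K9me3.

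The sequences below show the CpG-rich starts and the finger arrays of some members. The 250 bases before the annotated start site are printed for 4 members, with each CpG in capitals, from 5′ to 3′ in the direction of transcription (GRCh37, which has the coordinates of hg19 on this chromosome). No base of ZNF605 (chr12:133532893-133533142, minus strand) or ZNF10 (chr12:133706963-133707212, plus strand) printed here lay in an RS region. The printed bases of ZNF140 (chr12:133657259-133657508, plus strand) lay in 1 and those of ZNF268 (chr12:133757831-133758080, plus strand) lay partly in 1.
ZNF605: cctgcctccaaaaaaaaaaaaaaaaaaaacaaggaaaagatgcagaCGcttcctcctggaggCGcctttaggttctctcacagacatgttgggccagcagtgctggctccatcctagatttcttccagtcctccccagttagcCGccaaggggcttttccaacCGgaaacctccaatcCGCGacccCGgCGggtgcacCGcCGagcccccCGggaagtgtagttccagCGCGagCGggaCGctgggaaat
ZNF10: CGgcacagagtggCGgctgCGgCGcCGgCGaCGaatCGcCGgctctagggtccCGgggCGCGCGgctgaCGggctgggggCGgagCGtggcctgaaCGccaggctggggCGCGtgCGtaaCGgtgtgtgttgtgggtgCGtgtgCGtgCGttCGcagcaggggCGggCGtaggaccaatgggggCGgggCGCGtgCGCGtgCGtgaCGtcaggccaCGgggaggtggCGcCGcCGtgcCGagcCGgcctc
ZNF140: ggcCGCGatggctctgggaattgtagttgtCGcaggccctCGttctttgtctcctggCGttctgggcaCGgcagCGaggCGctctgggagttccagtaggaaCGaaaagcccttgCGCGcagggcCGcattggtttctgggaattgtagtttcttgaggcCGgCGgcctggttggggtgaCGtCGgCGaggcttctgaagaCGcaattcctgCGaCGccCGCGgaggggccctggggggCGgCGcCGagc
ZNF268: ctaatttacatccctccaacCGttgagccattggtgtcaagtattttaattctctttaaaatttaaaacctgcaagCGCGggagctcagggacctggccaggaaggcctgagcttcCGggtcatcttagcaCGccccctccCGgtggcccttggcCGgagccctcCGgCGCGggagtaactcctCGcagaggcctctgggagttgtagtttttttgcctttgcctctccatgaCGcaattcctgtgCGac
The stretch held 15 CpGs in ZNF605, 40 in ZNF10, 25 in ZNF140 and 13 in ZNF268. Starts inside and outside RS regions both held CpGs, and their counts overlapped.

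The finger arrays are shown by 252 bases of the last coding exon of 3 members, with each match to ACTGGAGA in capitals. These letters are 1 spelling of the start of the linker between fingers. The stretches lie at chr12:133634997-133635248 for ZNF84 (plus strand), chr12:133697143-133697394 for ZNF891 (minus strand) and chr12:133733198-133733449 for ZNF10 (plus strand).
ZNF84: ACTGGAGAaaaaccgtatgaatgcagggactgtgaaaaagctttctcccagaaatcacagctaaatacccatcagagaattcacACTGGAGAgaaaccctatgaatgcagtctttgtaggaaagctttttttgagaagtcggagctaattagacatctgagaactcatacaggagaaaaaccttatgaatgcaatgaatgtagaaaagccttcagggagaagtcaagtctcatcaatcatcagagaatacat
ZNF891: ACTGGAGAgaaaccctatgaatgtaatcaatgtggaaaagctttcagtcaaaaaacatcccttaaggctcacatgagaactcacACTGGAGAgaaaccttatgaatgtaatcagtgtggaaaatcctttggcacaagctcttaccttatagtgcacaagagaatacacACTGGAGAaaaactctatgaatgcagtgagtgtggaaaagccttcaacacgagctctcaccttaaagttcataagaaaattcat
ZNF10: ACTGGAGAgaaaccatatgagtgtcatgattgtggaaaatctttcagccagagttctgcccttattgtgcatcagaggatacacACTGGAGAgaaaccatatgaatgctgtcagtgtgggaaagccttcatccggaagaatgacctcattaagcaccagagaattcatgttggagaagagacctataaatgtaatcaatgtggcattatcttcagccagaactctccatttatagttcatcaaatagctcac
The capitals recur every 84 bases in places, the length of 1 finger with its linker. They are shown together because the lists differed among them. The whole ZNF84 stretch lay in an RS region and in no DiffBind region, the ZNF891 stretch lay in a DiffBind region and in no RS region, and the ZNF10 stretch lay in both. None lay in a PRO region.

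Read on the coding strand, the last coding exon held 5 matches in ZNF891, 5 in ZNF10, 4 in ZNF140, 3 in ZNF84 and 2 in ZNF605. The exons of ZNF26 and ZNF268 held no match to these letters. Over all 19010 coding genes of at least 2 kb, 3.05% of last coding exons held at least 1 match and 1.28% held at least 3. On the opposite strand no member exon matched, beside 0.836% of all last coding exons. A search of the translated coding sequence for the C2H2 pattern (C, 2 to 4 residues, C, 12 residues, H, 3 to 5 residues, H) counted 24 fingers in ZNF268, 19 in ZNF84, 17 in ZNF605, 13 in ZNF26, 10 in ZNF140, 10 in ZNF10 and 7 in ZNF891.

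Over the whole interval, RS regions covered far more of the sequence than PRO regions. The PRO list had 17 regions there and they covered 15.6 kb, or 3.17% of the sequenced bases. The RS list had 106 regions that covered 210 kb, or 42.6%. The DiffBind list had 44 regions that covered 36.5%. RS regions thus covered 13.4 times the bases of PRO regions in the interval, beside 11.1 times over the genome. The interval stood above the genome in all 3 lists, at 26.5 times the genome-wide share for PRO, 31.96 times for RS and 30.1 times for DiffBind. It held 0.455% of all PRO bases and 0.550% of all RS bases on the main chromosomes.

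**Figure D1:**
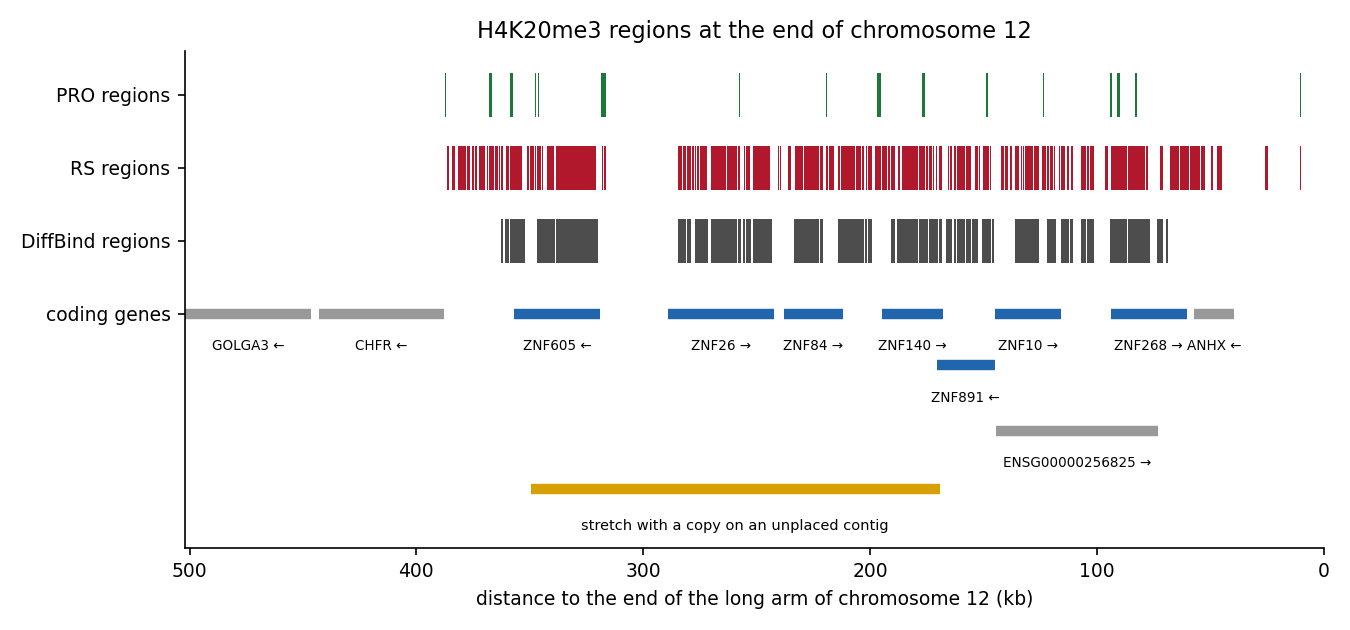
Regions of the PRO, RS and DiffBind lists (bars), coding genes (blue for the 7 members, grey for others, drawn by 1 transcript for the others, arrows for the strand) and a stretch that has a near copy on an unplaced contig, along the last 502 kb of chromosome 12. The x axis is the distance to the chromosome end in kb. RS regions begin just beyond CHFR, run through the members and leave a gap of 31999 bases that ends inside ZNF26.

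The interval was divided sharply along its length. No RS region lay in its first 116 kb, where GOLGA3, a Golgi protein gene, and CHFR, which encodes a mitotic checkpoint ubiquitin ligase, are found. The first RS region began 1410 bases upstream of the annotated start site of CHFR, at chr12:133465601. The nearest PRO region, chr12:133464601-133465001, lay between that start site and the first RS region. Of the 17 PRO regions in the interval, it alone met no RS region. From there to chr12:133842001, just past the last sequenced base, RS regions recurred with a median gap of 599 bases. Of 105 gaps, 72 were shorter than 1000 bases. Joining regions less than 1000 bases apart left 37 RS regions. Single RS regions had a median length of 1201 bases here, against 801 over the genome, and the longest spanned 17401 bases, chr12:133513601-133531001, within ZNF605.

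Of 11 other coding genes that overlap the interval or lie within 300 kb on its centromeric side, 8 had no base in an RS region. They are FBRSL1, LRCOL1, the ATP-gated channel gene P2RX2, POLE, which encodes the catalytic subunit of DNA polymerase epsilon, the peroxisomal gene PXMP2, the mitochondrial phosphatase gene PGAM5, ANKLE2 and GOLGA3. CHFR had 36.1% of its annotated extent in RS regions, but that extent includes a readthrough transcript that runs over ZNF605. The representative CHFR transcript had 0%. The predicted readthrough gene ENSG00000256825, which spans ZNF10 and reaches into ZNF268, had 59.1%, and it shares 69.3% of its bases with members. ANHX, a homeobox gene between ZNF268 and the chromosome end, had 43.9% in RS regions and 0% in PRO and DiffBind regions.

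All 7 members had at least 50% of the gene body in RS regions, and none had more than 7.81% in PRO regions. Among all 19010 coding genes of at least 2 kb, 0.815% had at least 50% in RS regions, and among the 558 other zinc finger genes 17.4% did. This is the contrast that selected the members, so nothing is read from the count. It was 5 with regions of at least 1000 bases alone, and 4 without bases shared with other genes, where ZNF605 kept 2 bases and ZNF10 409. It was 0 when every region with a repeated 75-base window was dropped, which left 8.91% of the bodies in RS regions. Together the 7 bodies, which span 223 kb, were 3.51% covered by PRO, 68.3% by RS and 68.2% by DiffBind regions. Beside these stood medians over the other zinc finger genes of 0% for PRO, 11.2% for RS and 4.54% for DiffBind, and medians over all coding genes of 0% in each list.

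**Figure D2:**
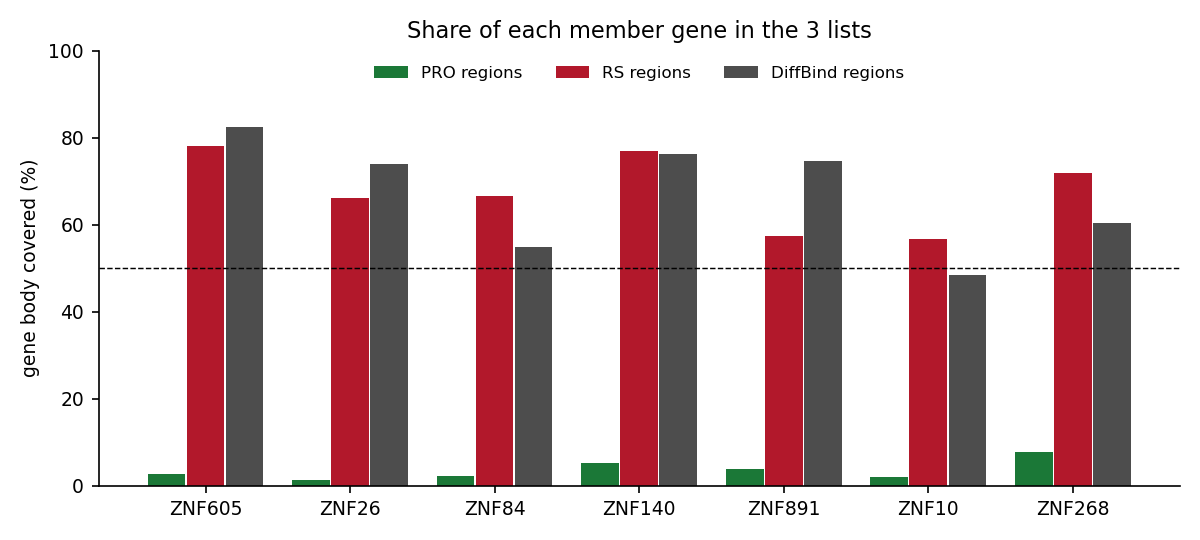
Share of each gene body (%, y axis) that lay in PRO, RS and DiffBind regions, with genes in order from the centromere to the chromosome end and a dashed line at 50%. RS shares run from 56.8% in ZNF10 to 78.2% in ZNF605, and no PRO share exceeds 7.81%.

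ZNF605 (chr12:133494892-133532892, minus strand) is the member farthest from the chromosome end and had the highest RS share. It was 2.64% covered by PRO, 78.2% by RS and 82.4% by DiffBind regions. Its longest RS region, the one of 17401 bases, held 58.6% of its RS bases. By RS share it took place 33 among all 19010 coding genes of at least 2 kb and place 13 among 565 zinc finger genes.

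ZNF26 (chr12:133562951-133609538, plus strand) is the longest member at 46588 bases. It was 1.29% covered by PRO, 66.1% by RS and 73.9% by DiffBind regions. Its 13 RS regions began 4448 bases inside the gene and continued past its last exon. The stretch between ZNF605 and this first region, chr12:133535402-133567400, was the longest RS-free stretch among the members, at 31999 bases, and held the ZNF26 start site and no PRO base.

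ZNF84 (chr12:133613878-133639890, plus strand) was 2.31% covered by PRO, 66.5% by RS and 54.9% by DiffBind regions. Its RS share was the median of the 7. Its 8 RS regions had a longest stretch of 6601 bases.

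ZNF140 (chr12:133657060-133684112, plus strand), which encodes a KRAB repressor, was 5.18% covered by PRO, 76.9% by RS and 76.2% by DiffBind regions. Its 12 RS regions were spread over the gene, and the longest, 4401 bases, held 21.1% of its RS bases. The end of ZNF140 overlaps the last exon of ZNF891 on the other strand, and the lists have no strand, so bases there count for both genes.

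ZNF891 (chr12:133681365-133706860, minus strand) was 3.93% covered by PRO, 57.4% by RS and 74.7% by DiffBind regions. DiffBind regions thus covered more of it than RS regions did. It begins head to head with ZNF10, and the annotated start sites of the pair are the closest among members.

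ZNF10 (chr12:133707161-133736051, plus strand), also known as KOX1, supplied the KRAB repression domain that is widely used in fusion proteins to silence genes. It was 2.08% covered by PRO, 56.8% by RS and 48.5% by DiffBind regions. It had the lowest RS share of the 7, at place 113 among coding genes, and was the member with under 50% in DiffBind regions.

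ZNF268 (chr12:133757995-133791418, plus strand) lies closest to the chromosome end, 60.5 kb from it, and has the most fingers. It was 7.81% covered by PRO, 71.9% by RS and 60.5% by DiffBind regions. Its PRO share was the highest among members, from 3 PRO regions, and it had the fewest RS regions, 6, with the highest median length, 4101 bases.

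Every member held at least 1 PRO base, 1 RS base and 1 DiffBind base. Over all coding genes of at least 2 kb, 4.07% held a PRO base, 21.7% an RS base and 19.1% a DiffBind base. At least 50% of the body lay in DiffBind regions in 6 of 7 members, beside 0.957% of all coding genes.

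Most member promoters held no RS base, which is the usual state of coding genes. In the 300 bases around the start site (250 before and 50 after), 5 of 7 members had no RS base, and 2, ZNF140 and ZNF268, had RS bases. Over all coding genes, 1.71% had an RS base in that window. ZNF268 was the 1 member with a PRO base there, beside 0.889% of all coding genes, and its whole window lay in the PRO region chr12:133757801-133758601. From the start site, the first RS region inside the gene began after 1459 bases in ZNF891, 1706 in ZNF84, 1891 in ZNF605, 2588 in ZNF10 and 4448 in ZNF26. The start sites of ZNF891 and ZNF10 shared a single RS-free stretch of 4.40 kb.

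**Figure D3:**
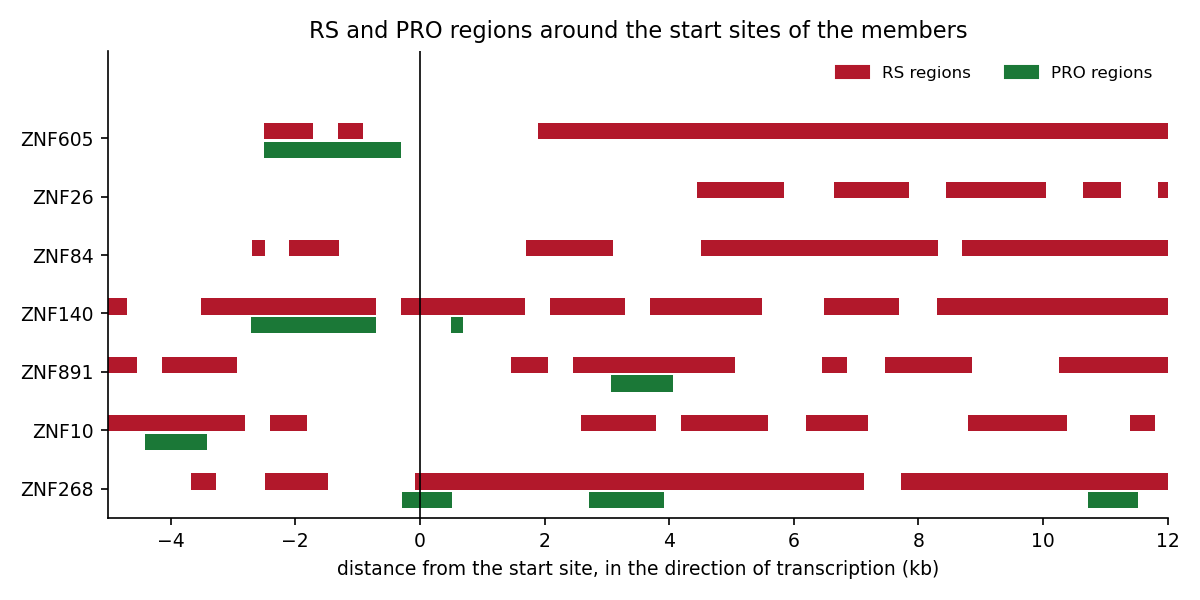
RS regions (red) and PRO regions (green) from 5 kb before to 12 kb after the start site of each member, aligned on the start site and in the direction of transcription (x axis, kb). The start sites of ZNF140 and ZNF268 lie inside RS regions, and those of the other 5 members lie in RS-free stretches.

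The CpG content of the windows did not separate those with RS bases from those without. The 5 promoters outside RS regions together had 124 CpGs per kb and a ratio of observed to expected CpG of 1.07. The ZNF140 and ZNF268 windows had 81.7 per kb and a ratio of 0.895, and single windows ran from 20 CpGs in ZNF268 to 46 in ZNF84 and ZNF10. The ZNF605 window, which was RS-free, had 24 CpGs, fewer than the 29 in the covered ZNF140 window.

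Across the stretch from the first to the last RS region, RS bases were richer in G and C than the bases between them, at 45.7% against 40.0%. CpGs were at 15.2 per kb in RS bases and 12.8 per kb between them, while the ratio of observed to expected CpG was 0.291 in RS bases and 0.3204 between them. PRO bases had 50.0% GC and 28.8 CpGs per kb. The RS-free part of the interval on the centromeric side, with GOLGA3 and CHFR, had 52.4% GC.

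Along the gene bodies, mean RS coverage was lowest at the start, but the members differed. With each body cut into 10 equal bins, the mean over the 7 members was 42.3% in the first bin and 83.0% in the second. The first bin was the lowest in 3 members, ZNF26, ZNF84 and ZNF10, while it was 99.8% covered in ZNF268 and 80.04% in ZNF140. ZNF891 had its lowest share, 2.47%, and ZNF605 its lowest, 34.0%, in the ninth bin. The mean was highest, 90.0%, in the fifth bin, where every member had at least 72.4%. The sixth bin of ZNF268 was the 1 bin of any member without an RS base. Over the 558 other zinc finger genes the mean ran from 13.5% in the first bin to 27.6% in the ninth.

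**Figure D4:**
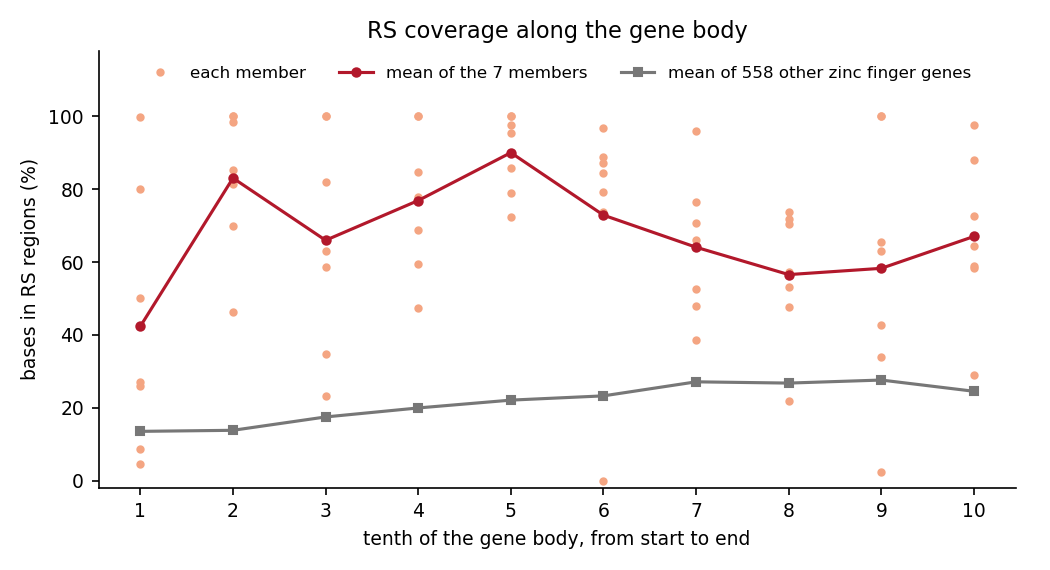
Percent of bases in RS regions (y axis) in 10 equal bins of the gene body from start to end (x axis), for each member (small points), the mean of the 7 members (red line) and the mean of 558 other zinc finger genes (grey line). The member mean is 42.3% in the first bin and 90.0% in the fifth, and the other genes stay between 13.5% and 27.6%.

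The downstream 50% of the members held 47.2% of their RS bases, while in the other zinc finger genes it held 58.3%. The member share passed 50% under 2 other settings, at 55.1% without bases shared with other genes and 55.4% without regions that hold a 75-base window repeated on placed chromosomes. ZNF26, at 55.0%, and ZNF10, at 54.8%, had more RS bases in the downstream part, and ZNF268 had the least there, at 35.9%. The last exons together were 64.7% covered by RS regions and the rest of the bodies 69.6%. Single last exons ran from 38.2% in ZNF10 to 74.1% in ZNF26, and 6 of 7 reached 50%, beside 1.55% of all coding genes.

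Most last exons of these genes are largely untranslated, so the part that codes for fingers was measured alone. The last coding exons of the members together were 73.5% covered by RS regions, 65.9% by DiffBind regions and 0% by PRO regions. The same exons of the other zinc finger genes were 39.6%, 38.6% and 1.79% covered. In ZNF26 the RS share of the coding part was 100%, in ZNF605 91.8% and in ZNF140 90.8%. ZNF84 had 76.7%, ZNF10 72.7% and ZNF268 63.5%. ZNF891 had the lowest share, 30.9%. The DiffBind list divided these exons differently. It covered 100% of the coding part in ZNF26, ZNF10 and ZNF268, 92.2% in ZNF891 and 90.8% in ZNF140, but 0% in ZNF605 and ZNF84.

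Introns were covered too. RS regions held 53.6% of intron bases in ZNF891, the lowest, and 80.9% in ZNF605, the highest. Of 19 annotated non-coding genes and pseudogenes in the interval, 11 had an RS base and 5 lay wholly in RS regions. Outside the members lay 57.6 kb of RS sequence, and the member bodies held 72.5% of the RS bases of the interval, 50.1% of the PRO bases and 84.6% of the DiffBind bases.

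Nearly all PRO regions of the interval met an RS region. Of the 17 PRO regions in the interval, 16 met an RS region, and RS regions held 89.8% of PRO bases. The 14 PRO regions that lay wholly inside RS regions made up 78.2% of PRO bases. Over the genome, 54.8% of PRO regions met an RS region. RS regions cover 42.6% of the interval and 1.33% of the genome, so overlap is likelier here and nothing is read from this difference. The region chr12:133533201-133535401 upstream of ZNF605, the longest PRO region of the interval at 2201 bases, was split in the RS list, with 54.6% of it in RS regions. The region over the ZNF268 start site lay 75.0% in RS regions. PRO regions met RS regions in all 7 members, within introns in most of them, and in the last exon of ZNF26.

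DiffBind regions covered most but not all RS sequence of the interval. They ran from chr12:133489001 to chr12:133783201, while RS regions extended on both sides. Of 106 RS regions, 66 met a DiffBind region and every 1 of these lay wholly inside it, so that 72.8% of RS bases were in DiffBind regions, beside 47.6% over the genome. Of the other 40 RS regions, 11 lay upstream of CHFR before the first DiffBind region and 4 over ANHX. A further 17 lay in member bodies. They were 5 in ZNF10, 3 in ZNF605, 3 in ZNF84, 2 in ZNF140, 2 in ZNF268, 1 in ZNF26 and 1 in ZNF891. Of 44 DiffBind regions, 42 met an RS region and 7 met a PRO region. Over the genome, 73.4% of DiffBind regions met an RS region. The DiffBind regions without a PRO or RS base were 2, chr12:133705801-133706601 in the first intron of ZNF891 and chr12:133782201-133783201 in the last exon of ZNF268. Of the PRO regions, 8 of 17 met DiffBind regions, or 46.2% of PRO bases, beside 8.94% of PRO bases over the genome. Overlap is likelier here, where DiffBind regions cover 36.5% of the sequence beside 1.21% over the genome. Nothing is read from these differences.

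The sequence of this interval is not unique in the assembly. An unplaced contig of 180455 bases aligned to chr12:133502306-133682654 on the minus strand with 99.9% identity. The matching stretch holds 80.5% of ZNF605, 100% of ZNF26, 100% of ZNF84 and 94.6% of ZNF140, but 5.06% of ZNF891 and none of ZNF10 or ZNF268. Windows of 75 bases that occur again in the assembly made up 98.1% of the stretch, and 2.55% when copies on unplaced contigs were not counted. No region of the 3 lists lies on an unplaced contig, and whether the authors' reference held it is not given in the sources used here. Over all bases, coverage of the stretch was close to that beyond it, though the stretch holds the RS-free gap of 31999 bases. PRO, RS and DiffBind regions covered 4.33%, 60.4% and 59.1% of the matching stretch. They covered 4.05%, 59.6% and 58.1% of the 109 kb from its end to the end of ZNF268. With the stretch left out, the member bodies were 63.0% covered by RS and 61.0% by DiffBind regions. With it, these shares were 68.3% and 68.2%, so in both lists the bodies were covered more inside the stretch than beyond it.

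Among 41 chromosome ends with enough assembled sequence, the last 502 kb of 12q took place 2 by RS share, at 42.6%, after the end of 4p at 44.3% and before 19q at 29.0%. The median over ends was 1.404%. By PRO share 12q took place 5, at 3.17% beside a median of 0.227%, and 4q led with 11.4%. Together the 41 ends gave 20.8% of their RS bases to 12q. The genome was also cut into 5716 adjacent windows of this length, laid from the long-arm end of each chromosome. Among these windows the interval took place 4 by RS share. The 3 above it were 1 window of chromosome 4, near its centromere, and 2 windows of chromosome 19. The place depends on where the windows begin, since the end of 4p, at 44.3%, was not among them. The study reports lower H4K20me3 in RS than in PRO cells at subtelomeric regions. The sequence and measure behind that result may differ from the ends used here, and the results were not compared.

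The members, which were selected on RS coverage, spanned a narrower range of RS shares than all zinc finger genes of 3 other chromosome ends. Each of those ends had at least 3 such genes in the outer 1 Mb. At 4p, 5 genes ran from 30.1% to 66.9% in RS regions, with a median of 46.5%, and 1 of them, ZNF141, reached 50%. At 8q, 6 genes ran from 0% to 58.5% with a median of 16.4%. At 19q, 30 genes ran from 0% to 93.5% with a median of 5.68%, and 7 reached 50%. The members ran from 56.8% to 78.2% with a median of 66.5%. These ends were not tested against each other, since the members were selected on this measure.

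**Figure D5:**
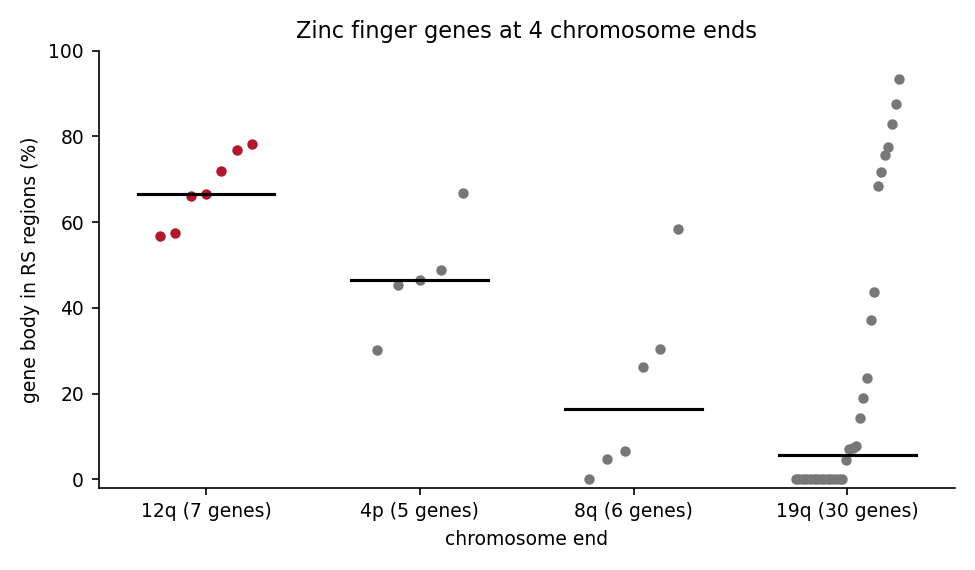
Share of each gene body in RS regions (%, y axis) for zinc finger genes at 4 chromosome ends (x axis), 1 point for each gene, sorted within an end, with a line at the median. The 7 genes of 12q lie between 56.8% and 78.2%, and each other end has genes below 50%.

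The coding genes whose PRO, RS and DiffBind shares lay closest to the member medians were sought among 18999 genes outside the interval, by Euclidean distance over the 3 shares. The nearest 5 were ZNF470 on chromosome 19 (distance 1.33 percentage points), ZNF559-ZNF177 on chromosome 19 (1.89), ZNF559 on chromosome 19 (2.99), ZNF397 on chromosome 18 (3.99) and ZFP69B on chromosome 1 (4.10). All 5 carry a zinc finger symbol. The search used coverage by the same lists that selected the members, so it returned genes with high RS coverage. At least 50% of the body lay in RS regions in 155 coding genes of at least 2 kb. Of these, 97 were zinc finger genes other than the members. Nothing is therefore read from the count of 5. ZNF559-ZNF177 is a readthrough gene that shares bases with ZNF559. ZNF470 was 3.57% covered by PRO, 67.4% by RS and 73.5% by DiffBind regions.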

How the data were processed

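H4K20me3 was measured by ChIP-seq in 4 samples, 2 PRO and 2 RS. Per the labels and the study's methods, single-end reads were mapped by the authors with Bowtie2 (2.1.0) to hg19. They called domains against total histone H4 with SICER (1.1) in windows of 200 bp, intersected the domains of both antibodies, and made the third list with DiffBind (1.8.3). The deposited lists hold start and end positions, with no counts or scores, so the depth of a region is unknown and no interval for it was computed. The DiffBind list used here has 18711 regions, fewer than the study describes, so it may be incomplete, and it gives no direction. The authors' text names more than 1 count model for it.

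The 7 members, the interval and the comparison lists were chosen with earlier results of these data known. Coverage is the number of bases of a gene or interval inside regions of a list, counted once, over its length (for the interval, its sequenced bases). End positions were taken as the last base, and 0 regions ran past a chromosome end. The region that crosses the last sequenced base of the interval was counted whole. The annotation was GENCODE release 44 in its GRCh37 version, with 1 representative transcript each for exons and start sites. The named genes are the members, coding genes in the interval or within 300 kb on its centromeric side, zinc finger genes of other ends with at least 3 in the outer 1 Mb, and the 5 nearest in coverage. The contig was aligned with minimap2 (2.31), and interval arithmetic was tested on simulated data (Python 3.11.15, numpy 2.4.6, pysam 0.24.0). A setting was said to move a value when it left the 95% Wilson interval of the main share, counted over windows of 200 bp.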

Additional observations from a re-analysis of the deposited data

How the results depend on the processing

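No paired analysis was possible because there is 1 merged list for a group and no column for a sample, and for the same reason no replicate could be left out. Of 12 alternatives, dropping 1-base regions (0 in the interval), keeping regions of at least 600 bases, lowering each end by 1 base and taking gene bodies as 1 transcript moved none of the summary values. Keeping regions of at least 1000 bases gave 2.03% PRO and 38.7% RS for the interval, 1.53% and 63.0% for the member bodies, 58.0% for last exons and 64.7% for the rest, and ZNF891 and ZNF10 fell under 50% in RS regions (48.7% and 47.8%). Joining regions less than 1000 bases apart gave 49.7% RS and 38.7% DiffBind for the interval, 79.0% and 71.8% for the bodies, 75.1% for last exons and 80.7% for the rest. Taking the interval from the first to the last member base gave 4.12% PRO, 60.2% RS and 58.9% DiffBind, with 83.2% of RS bases in DiffBind regions.

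Dropping every region that holds a 75-base window found again in the assembly, which removes a long region for a single window, gave 1.099% PRO, 7.28% RS and 3.46% DiffBind for the interval, 1.08%, 8.91% and 7.46% for the bodies, 12.6% for last exons and 7.29% for the rest, 30.2% of RS bases in DiffBind regions and 0 members at 50%. Dropping them only for windows repeated on placed chromosomes, chosen after seeing the data, gave 1.63%, 12.4% and 4.11% for the interval, 1.35%, 19.7% and 8.62% for the bodies, 22.1% for last exons, 18.7% for the rest, 22.4% of RS bases in DiffBind regions, 55.4% of RS bases in the downstream 50% and 0 members at 50%. Counting instead only bases that start a window not repeated on placed chromosomes, also chosen afterwards, moved none of 11 summary values, and left 68.2% RS for the bodies and 7 members at 50%. Windows repeated on placed chromosomes were 3.64% of those in the interval, so this setting left out few bases and could move little. It did not count the copy on the contig. Leaving out the stretch copied on the contig, chosen afterwards, gave 2.51%, 32.3% and 23.4% for the interval, 63.0% RS and 61.0% DiffBind for the bodies and 58.0% of RS bases in DiffBind regions.

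Without bases shared with any other gene, 4 members reached 50% in RS regions, the bodies were 64.7% covered by DiffBind regions, and 55.1% of RS bases lay in the downstream 50%. ZNF605 then kept 2 bases and ZNF10 409, by overlap with readthrough genes, and ZNF891 had 49.2%.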

Other observations

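Beyond the members, the end of the chromosome carried RS regions that the DiffBind list did not. RS regions over ANHX, a homeobox gene, covered 43.9% of it, with 0% in DiffBind regions. The pseudogene ENSG00000255919, next to ZNF268, lay wholly in an RS region. An RS-free stretch of 18999 bases that began inside ANHX and held its start site, and another of 14199 bases nearer the chromosome end, were separated by an RS region of 1001 bases, chr12:133826201-133827201. The last region, chr12:133841401-133842001, runs just past the last sequenced base and was the same in the PRO and RS lists.

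On the centromeric side, 11 RS regions between chr12:133465601 and chr12:133488601, over the readthrough part of CHFR, met no DiffBind region, and 1 of them held a PRO region of 1201 bases, chr12:133484001-133485201. The processed pseudogene ENSG00000255703 in this part lay 91.9% in RS regions. The small RNA genes RNU4ATAC12P in ZNF26 and the Y RNA copy in ZNF140 lay wholly in RS and in DiffBind regions.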
